A study of Homo sapiens with 20 samples.

Results

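A set of mRNAs of the translation machinery that are not ribosomal protein mRNAs were followed through PAR-CLIP libraries of the RNA-binding protein IGF2BP3. They are EEF1A1 (ENSG00000156508), EEF2 (ENSG00000167658), EEF1B2 (ENSG00000114942), EEF1G (ENSG00000254772), EEF1D (ENSG00000104529), TPT1 (ENSG00000133112), RACK1 (ENSG00000204628), PABPC1 (ENSG00000070756), NACA (ENSG00000196531) and EIF4B (ENSG00000063046), 10 of the 19962 genes in the count table. The list was chosen by gene class, as known or proposed TOP mRNAs, at a time when counts of these libraries were already known. The values that entered the choice are not recorded, so the gene counts of the 10 genes are a description. Calls from the fits over all genes are given beside them to place the genes among all others, and are not independent evidence.

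TOP mRNAs begin with a cytidine followed by an uninterrupted run of pyrimidines, the 5′ terminal oligopyrimidine motif. Their translation is coordinated by mTORC1 signalling and the RNA-binding protein LARP1, which recognises the cap and the motif, so that cells can switch synthesis of the translation apparatus on and off as a group. IGF2BP3 is an RNA-binding protein of the insulin-like growth factor 2 mRNA-binding family that is made in embryonic tissue and again in many carcinomas.

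All libraries came from HCT116, an established line of human colorectal carcinoma cells, here of the genotype Tet-OsTIR1-PURO, which can be induced to make the plant F-box protein OsTIR1. Whether the line is a single clone is not given in the sources used here. In PAR-CLIP, 4-thiouridine enters new RNA, light crosslinks it to a bound protein, and T-to-C conversions in the reads mark the crosslinked bases. In all groups the label was present for 15 h at 100 µM, and the light was of 365 nm at a dose of 0.15 J/cm2. Tunicamycin (TM), which blocks N-linked glycosylation and stresses the endoplasmic reticulum, was present for 1 h or for 4 h at 5 µg/mL, with DMSO for 4 h as the vehicle of both. Sodium arsenite, an oxidative stress, was given at 250 µM for 2 h, with PBS for 2 h as its control; the titles name arsenite and the protocol arsenate. An anti-IGF2BP3 antibody was used for 3 libraries in each of the 5 conditions and control IgG for 1, with several dishes pooled per condition. The labels do not say that the 3 libraries came from separate cultures, so the tests measure the spread between libraries, which may be technical.

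The starts of the genes show the feature that gives the group its name. RefSeq (GRCh38.p14) start sequences were at hand for 8 of the 10 genes, all but PABPC1 and EEF1D. Each line gives the 15 bases before the annotated start and the 15 from it on, on the gene's strand, with a pyrimidine run that begins at the start in capitals.
EEF1A1, chr6:73521018-73521047, minus strand: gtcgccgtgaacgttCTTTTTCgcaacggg
EEF2, chr19:3985449-3985478, minus strand: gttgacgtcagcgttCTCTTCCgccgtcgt
EEF1B2, downstream start, chr2:206159880-206159909, plus strand: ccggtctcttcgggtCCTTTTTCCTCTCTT
EEF1G, chr11:62573877-62573906, minus strand: tctcccgggcggcttactttgcggcagcgc
TPT1, chr13:45341169-45341198, minus strand: agcggctgagtcggcCTTTTCCgcccgctc
RACK1, chr5:181243892-181243921, minus strand: ggggggcttttctctCTCTCTTTCactgca
NACA, chr12:56725285-56725314, minus strand: acgctctcgctcggtCTTTCTgccgccatc
EIF4B, chr12:53006441-53006470, plus strand: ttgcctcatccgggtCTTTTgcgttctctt
A cytidine followed by at least 4 pyrimidines stood at an annotated start in 7 of the 8 genes, against 6.24% of 15843 protein-coding genes with a start sequence. EEF1B2 had it at its downstream start only, and its upstream start (chr2:206159594-206159623, gccggaagtggccccagcctcgaggccggg) had no pyrimidine run. EEF1G had none at its annotated start. The genes were listed as TOP mRNAs, so this count describes the list and is not evidence about binding.

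Total gene counts ran from 130478 to 1568406 in the 15 anti-IGF2BP3 libraries and from 5981 to 17503 in the 5 IgG libraries. Scaling factors of the fits (TMM) lay between 0.976 and 1.02. Cluster reads were found for 8 of 10 epithelial markers in the anti-IGF2BP3 libraries, among them KRT8 (424 reads) and EPCAM (301 reads), with LGALS4 and CEACAM5 at 0. They were found for 0 of 6 fibroblast, 0 of 3 endothelial and 1 of 5 leukocyte markers, the last being CD68 with 15 reads in 1 library. The amount of each RNA was not measured, so a change in count may be a change in binding or in RNA, and fewer cells and less RNA per cell cannot be told apart either. Levels are CPM, a count scaled to its library's total gene count in the usual way, and means are given ± SD.

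Counts of EEF1A1 fell after 1 h of tunicamycin, and those of EEF1A1, EEF2, RACK1 and NACA rose after 4 h. With arsenite EEF1A1, EEF2, PABPC1 and EIF4B fell and NACA rose. Of the 9 genes that could be tested, 8 lay below the 4 h vehicle at TM 1 h with a median log2 difference of -0.29, and all 9 lay above it at TM 4 h with a median of 0.26, while the median of all genes was 0.00 in both. Genes are named as called where the p of edgeR's quasi-likelihood test, adjusted over all genes by the method of Benjamini and Hochberg, is under 0.05. By this rule 1 gene was lower at TM 1 h (EEF1A1) beside 0.408% of all 8343 genes tested. At TM 4 h 4 were higher (EEF1A1, EEF2, RACK1, NACA) beside 2.79% of all genes. Between TM 4 h and TM 1 h, a comparison that leaves out the vehicle, 7 were higher beside 5.60%. In arsenite against PBS 7 genes could be tested, and 4 were lower (EEF1A1, EEF2, PABPC1, EIF4B) beside 17.1% of 6642 genes, and 1 was higher (NACA) beside 17.6%. The change with arsenite lay below the change at TM 4 h for 6 of 9 genes beside 9.74% of 7796 genes. Since counts of these libraries were in view when the genes were chosen, nothing is read from these shares. The TM comparisons share libraries, and the difference between stresses shares them with both.

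EEF1A1, the factor that delivers aminoacyl-tRNA to the ribosome, was called in all 5 comparisons among treatments. Its level was 396, 360 and 369 CPM in the PBS libraries, 227, 210 and 229 with arsenite, 412, 375 and 339 with DMSO, 307, 280 and 270 at TM 1 h, and 466, 477 and 518 at TM 4 h. Every group was apart from every other, except that PBS and DMSO overlapped, and the order from high to low was TM 4 h, the vehicles, TM 1 h and arsenite. On the log2 scale EEF1A1 fell by 0.75 ± 0.12 (SE) with arsenite and by 0.39 ± 0.10 at TM 1 h, and it was 0.40 ± 0.09 above DMSO at TM 4 h. TM 4 h was 0.79 ± 0.10 above TM 1 h. The call at TM 1 h was lost without any single DMSO or TM 1 h library (log2 differences from -0.46 to -0.33) and without TM 4 h replicate 1 (-0.39). It was also lost with the replicate block (-0.39) or the library set as a block (-0.39), with replicates 1 and 2 alone (-0.41), in DESeq2 (-0.39) and without the filter on low counts (-0.41). The call at TM 4 h was lost without DMSO replicate 3 (0.33) and with replicates 1 and 2 alone, which the library names place in a set of their own (0.29). RefSeq names 50 pseudogenes after EEF1A1, 0 after EEF2 and 3 to 14 after each of the others. How reads that match several loci were counted is not given in the sources used here, so the counts of such genes are uncertain.

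EEF2, the translocase that moves the ribosome along the mRNA, differed in the same directions as EEF1A1 with smaller fitted differences. It held 3536, 4093 and 3578 CPM in PBS, 3439, 3222 and 2919 with arsenite, 3105, 2725 and 2558 with DMSO, 2522, 2355 and 2269 at TM 1 h, and 3815, 3877 and 3009 at TM 4 h. Arsenite lay below PBS and TM 1 h below DMSO in all libraries, while TM 4 h replicate 3 overlapped DMSO. EEF2 was 0.34 ± 0.08 above DMSO at TM 4 h and 0.56 ± 0.08 above TM 1 h, and it fell by 0.20 ± 0.06 with arsenite. Its TM 1 h difference of -0.22 ± 0.08 was not called. The arsenite call was lost without arsenite replicate 3 (-0.12), in DESeq2 (-0.21) and without the filter on low counts (-0.15), and the TM 4 h call without TM 4 h replicate 2 (0.26).

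The subunits of the nucleotide exchange complex eEF1B, which recharges EEF1A1 with GTP, were listed with far lower gene counts. EEF1B2, the exchange subunit alpha, had 0 to 33 counts per anti-IGF2BP3 library, and EEF1D, the exchange subunit delta, had 1 to 33. Neither was called in any comparison in which it was tested, and neither passed the filter on low counts for arsenite against PBS. EEF1G, the structural subunit gamma, was listed at 0 counts in all 20 libraries. Its locus nevertheless held called clusters in all 15 anti-IGF2BP3 libraries, 11 to 398 reads per library and 1869 in all. The 0 counts are therefore not read as a level of EEF1G, and no detection limit is drawn from them. Why the count table lists none was not tested. EEF1D showed the reverse of EEF1G, with gene counts in all 15 anti-IGF2BP3 libraries and no called cluster.

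EEF1G could therefore be followed only through its clusters. In RPM, reads scaled in the same way to the library's total cluster reads, it held 380, 422 and 479 in PBS, 119, 204 and 228 with arsenite, 317, 218 and 206 with DMSO, 108, 185 and 193 at TM 1 h, and 343, 329 and 287 at TM 4 h. Arsenite lay below PBS and TM 4 h above TM 1 h in all libraries. A fit of cluster reads over all genes gave log2 differences of -1.04 ± 0.33 for arsenite, -0.50 ± 0.29 for TM 1 h and 0.41 ± 0.28 for TM 4 h. For TM 4 h against TM 1 h it gave 0.91 ± 0.29, and none of these was called. The medians of all genes were 0.31, -0.19, 0.01 and 0.22 in the same order. Clusters were called in each library on its own, so the cluster reads of a gene move with how much was called. Clusters on EEF1G covered a mean of 390 bases in PBS, 386 with arsenite and 586 with DMSO. For tunicamycin they covered 411 after 1 h and 688 after 4 h. The RPM per covered base averaged 1.66, 0.588, 0.479, 0.723 and 0.528 in the same order. Over all clusters in RefSeq genes it averaged 2.43, 0.717, 0.606, 1.13 and 0.538. RPM is scaled to the library, so over all genes this ratio mainly follows the bases covered and is higher in shallow libraries. In PBS the clusters of all genes covered 182971 to 943657 bases per library, from 40732 to 234300 reads. Its means therefore lean on the shallowest library, PBS replicate 2.

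TPT1, which encodes the translationally controlled tumour protein, was called in 1 of the 4 treatment comparisons. It held 514, 437 and 528 CPM in PBS, 406, 415 and 475 with arsenite, 441, 443 and 434 with DMSO, 386, 376 and 408 at TM 1 h, and 483, 589 and 518 at TM 4 h. PBS and arsenite overlapped, whereas the TM groups and DMSO were apart, with TM 1 h lowest and TM 4 h highest. TM 4 h was 0.41 ± 0.09 above TM 1 h, and 0.26 ± 0.08 above DMSO, a difference that was called only without TM 4 h replicate 1 (0.30) or with library totals as the scaling (0.28).

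RACK1, a scaffold protein of the small ribosomal subunit, had the largest fitted rise at TM 4 h of the 9 genes tested. It held 458, 468 and 441 CPM in PBS, 420, 447 and 398 with arsenite, 329, 296 and 291 with DMSO, 206, 269 and 240 at TM 1 h, and 492, 582 and 561 at TM 4 h. TM 4 h stood above every other group, DMSO and TM 1 h stood below the others, and PBS and arsenite overlapped. TM 4 h was 0.86 ± 0.09 above DMSO and 1.16 ± 0.10 above TM 1 h, and these calls held without each library in turn. The arsenite difference was -0.09 ± 0.10. The change with arsenite was 0.96 ± 0.13 below that at TM 4 h (log2 difference -0.96).

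PABPC1, the cytoplasmic poly(A)-binding protein, held 7452, 7450 and 7445 CPM in PBS, 7031, 6655 and 6164 with arsenite, 7677, 6700 and 6131 with DMSO, 6466, 6544 and 5800 at TM 1 h, and 7649, 8311 and 6944 at TM 4 h. The PBS libraries were nearly equal and above all arsenite libraries, TM 4 h lay above TM 1 h in all libraries, and DMSO spanned most of both TM groups. PABPC1 fell by 0.16 ± 0.05 with arsenite and was 0.26 ± 0.07 above TM 1 h at TM 4 h. Both calls depended on single libraries. The first was lost without arsenite replicate 3 (-0.09), in DESeq2 (-0.16) and without the filter on low counts (-0.10), and the second without TM 4 h replicate 2 (0.19) or TM 1 h replicate 3 (0.20).

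NACA, the alpha subunit of the nascent polypeptide-associated complex at the ribosome exit, was higher with arsenite and after 4 h of tunicamycin. It held 191, 184 and 161 CPM in PBS, 297, 253 and 266 with arsenite, 115, 132 and 138 with DMSO, 110, 80 and 123 at TM 1 h, and 230, 215 and 230 at TM 4 h. Arsenite exceeded PBS and TM 4 h exceeded both DMSO and TM 1 h in all libraries, and DMSO and TM 1 h overlapped. NACA rose by 0.62 ± 0.14 with arsenite and by 0.75 ± 0.12 at TM 4 h, and TM 4 h was 1.04 ± 0.14 above TM 1 h. The difference between the stresses was -0.14 ± 0.18 and was not called. In some libraries NACA had more reads in called clusters than gene counts, as in arsenite replicate 3 (344 against 292). In others it had fewer, as in PBS replicate 2 (10 against 24). Its gene counts thus leave out some reads at its locus, and the reason was not tested.

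EIF4B, a cofactor of the initiation helicase EIF4A, held 191, 192 and 193 CPM in PBS, 126, 122 and 132 with arsenite, 195, 171 and 197 with DMSO, 136, 155 and 143.1 at TM 1 h, and 179, 191 and 207 at TM 4 h. It was low with arsenite and at TM 1 h, and its TM 4 h values overlapped DMSO. EIF4B fell by 0.57 ± 0.16 with arsenite. TM 4 h was 0.41 ± 0.13 above TM 1 h, a call lost without TM 1 h replicate 1 (0.39), TM 1 h replicate 3 (0.37) or TM 4 h replicate 3 (0.35), with replicates 1 and 2 alone (0.32), in DESeq2 (0.39) and without the filter on low counts (0.39). At TM 1 h it lay 0.36 below DMSO (log2 difference -0.36 ± 0.13) without a call although no library overlapped.

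**Figure D1:**
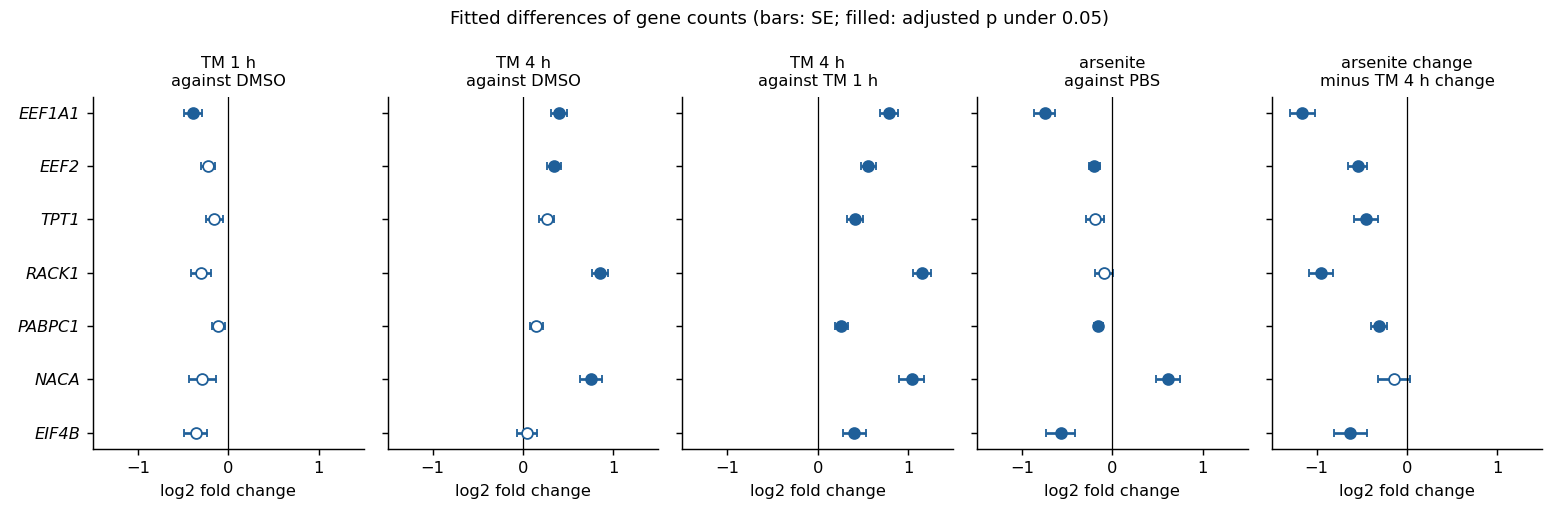
Fitted log2 fold changes of gene counts (horizontal axis) for 7 genes in 5 comparisons, with SE as bars and filled points where the adjusted p was under 0.05. Between TM 4 h and TM 1 h all 7 lie to the right of 0, and for arsenite only NACA does.

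The change with arsenite was set against the change at TM 4 h in a fit of its own. It was lower for EEF1A1 by 1.16 ± 0.14 (log2 difference -1.16), for EEF2 (-0.55 ± 0.11), TPT1 (-0.46 ± 0.13), PABPC1 (-0.31 ± 0.09) and EIF4B (-0.63 ± 0.18), besides RACK1. NACA is the gene of the 7 with enough counts that was not called. The TPT1 call was lost without PBS replicate 1 (-0.41) or replicate 3 (-0.39), and the PABPC1 call without arsenite replicate 3 (-0.24) or TM 4 h replicate 2 (-0.22) and in DESeq2 (-0.30), where EIF4B was lost too (-0.62). Without the filter on low counts TPT1 (-0.38), PABPC1 (-0.24) and EIF4B (-0.55) were not called.

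In the IgG libraries 7 of these mRNAs were counted in at least 4 of the 5, on far fewer counts, while EEF1B2 had 0 counts in 3 and EEF1D and EEF1G in all 5. EEF1D could not be tested against IgG, where 0 counts allow up to 171 CPM in the deepest library, above all of its anti-IGF2BP3 levels. In the order PBS, arsenite, DMSO, TM 1 h and TM 4 h, PABPC1 had 5485, 5018, 6485, 6521 and 6065 CPM in IgG, from 96, 47, 51, 39 and 70 counts. EEF2 had 2685, 3203, 2543, 3344 and 2772 CPM from 47, 30, 20, 20 and 32 counts. The exact 95% interval of PABPC1 in the deepest IgG library, which covers counting error only, ran from 4445 to 6694 CPM.

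EEF1A1 had 686, 534, 1017, 334 and 780 CPM in IgG, each above the anti-IGF2BP3 libraries of its condition, from 12, 5, 8, 2 and 9 counts. For DMSO and tunicamycin, the library names place the IgG libraries in the set of anti-IGF2BP3 replicate 3, apart from the other replicates. Antibody and set therefore cannot be fully told apart there. With condition but not set in the fit and library totals as scaling, EEF1A1 was lower in the anti-IGF2BP3 libraries (log2 difference -0.97 ± 0.28). It was 1 of 8 genes tested, beside 1.22% of 7022 genes in that direction. This call was lost without the IgG library of PBS (-1.01), arsenite (-0.91), DMSO (-0.83) or TM 4 h (-1.07), with TMM scaling (-0.37) and without the filter on low counts (-0.93). PABPC1 was 0.24 ± 0.09 and EEF2 0.15 ± 0.12 above IgG without a call, RACK1 0.04, NACA 0.27, TPT1 -0.26 and EIF4B -0.31. EEF1B2 differed by -2.74 ± 0.83 without a call, from 3 IgG counts in PBS, 3 at TM 4 h and 0 in the others. It was called without the DMSO IgG library (-3.001) and in DESeq2 (-2.73). TMM scaling moved all 8 differences up, to 0.87 for PABPC1 and 0.76 for EEF2, both then called, and turned TPT1 (0.34) and EIF4B (0.29) above 0. No difference from IgG was detectable at this depth for RACK1, NACA, TPT1 or EIF4B, which had 0 to 10 counts per IgG library. A count of 0, as for RACK1 in the arsenite IgG library, allows up to 320 CPM (3 counts).

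Clusters, the groups of overlapping reads with T-to-C conversions, show where on each gene IGF2BP3 libraries were read. The authors' cluster lists held clusters on 9 of the 10 genes in the anti-IGF2BP3 libraries, and in IgG lists on PABPC1 and EEF2 only (12 to 54 and 0 to 23 reads). The IgG lists of PBS and arsenite carry each other's names. The list attached to the arsenite library, followed here, has 54 PABPC1 reads although that library has 47 PABPC1 counts. The list attached to PBS has 12. Such an excess is not peculiar to these lists. NACA had more cluster reads than counts in arsenite replicate 3 (344 against 292), though fewer in PBS replicate 2 (10 against 24). The excess alone therefore does not show which IgG list belongs to which library. Clusters that overlapped between libraries were joined into regions.

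EEF2 was dominated by a single region, chr19:3976060-3976746, at the far end of the gene, with 84.5% of its 28984 cluster reads. PABPC1 had 20 regions, 13 of them found in all 15 libraries, and its leading region held 35.6% and the next 24.0% of 66521 reads. TPT1 had 7 regions, of which the leading pair held 56.9% and 29.1% of 4374 reads in all 15 libraries. EEF1A1 reads were spread over 16 regions, with 28.9% of 2892 reads in the leading region. All 13 regions of EIF4B lay near the end of its 35760-base span, whereas the leading region of RACK1 (31.1% of 3643 reads) covered the start of the gene. NACA had 8 regions with 43.8% of 2010 reads in the leading one, EEF1G 10 with 26.0%, and EEF1B2 3 with 68 reads in all.

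**Figure D2:**
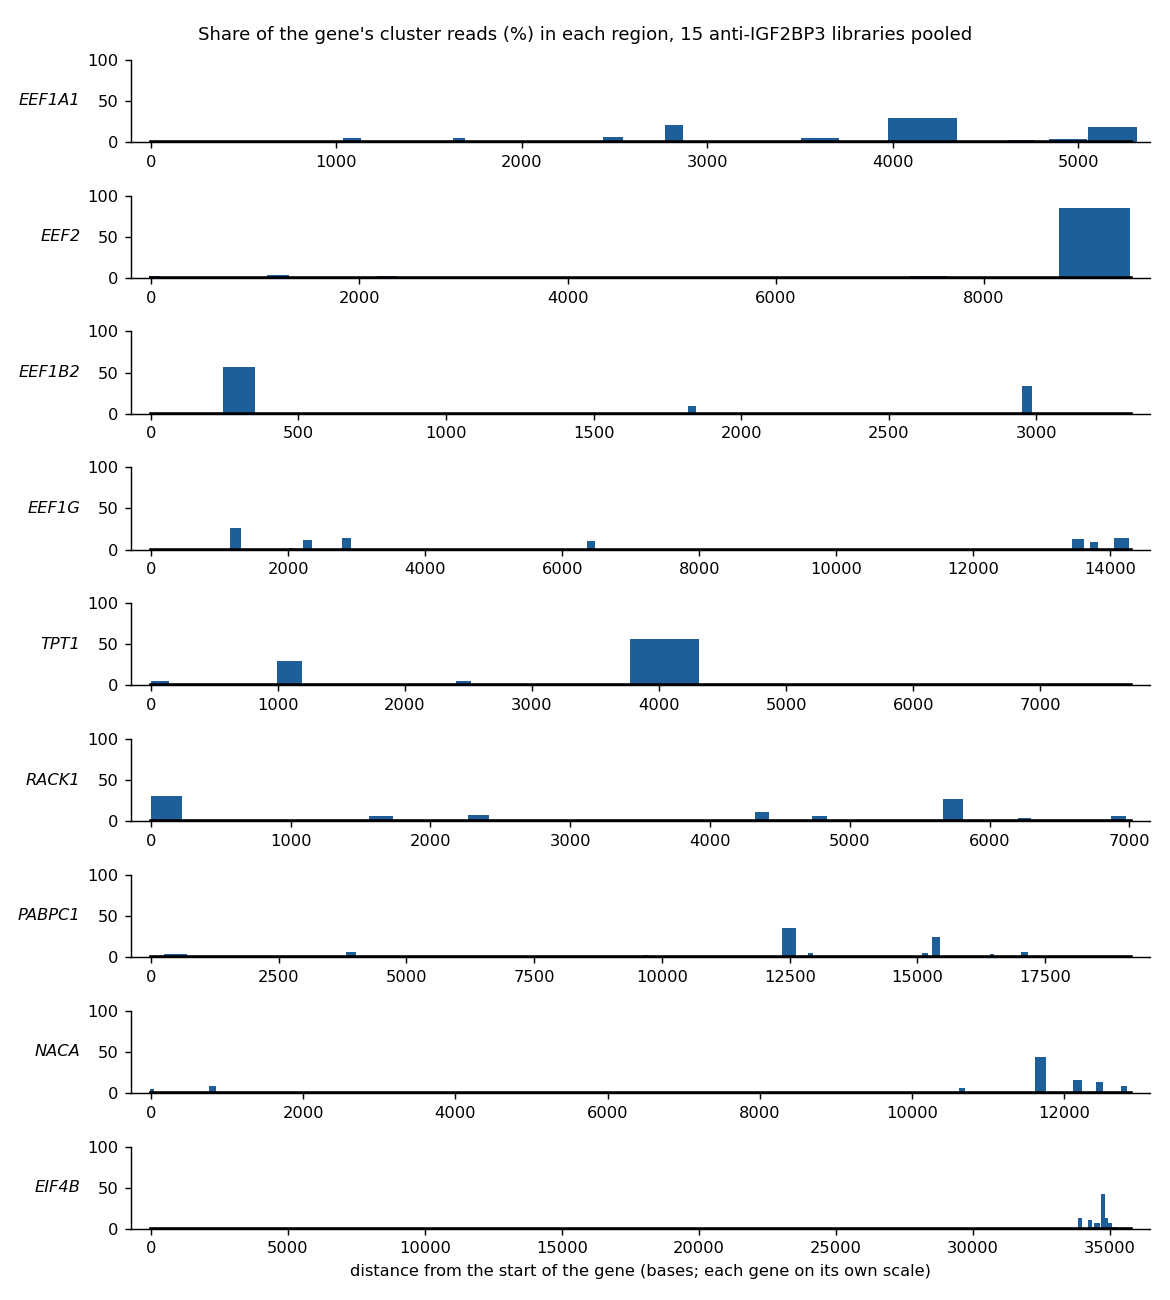
Share of each gene's cluster reads (vertical axis, percent) in each region, against distance from the start of the gene in bases, 15 anti-IGF2BP3 libraries pooled, each gene on its own scale. A single region holds 84.5% in EEF2, while the leading PABPC1 region holds 35.6% and RACK1 has its leading region at the start.

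Windows of 30 bases are shown for the leading regions as examples of the sequence in the reads, taken from the deposited cluster sequences. Each is centred on the mode location that the authors' lists give for a cluster. This is a position within the cluster and not a crosslinked base as such, since the base there was a T in 31.9% of 412123 clusters. A window is given for 6 leading regions; for EEF2 and EEF1G no single cluster spanned it, and that of PABPC1 is not shown. CAT, which is CAU in RNA and part of an element known for IGF2BP proteins, is in capitals, searched on the gene's strand.
EEF1A1, chr6:73516941-73516970, minus strand: gaaaaagatggcaatttgaagtagctataa
EEF1B2, chr2:206159911-206159940, plus strand: agcgtggggcgcccacaatttgcgcgctct
TPT1, chr13:45337305-45337334, minus strand: gcttgtCATccacacaacaccaggacttaa
RACK1, start of the gene, chr5:181243788-181243817, minus strand: acgctctcgccgccgcCATgactgagcaga
NACA, chr12:56713639-56713668, minus strand: ggtcttcggcaggttacaggagttactaga
EIF4B, chr12:53041156-53041185, plus strand: taacctcccaaaaagcagtatctaagtcac
CAT is present in 2 of these 6, TPT1 and RACK1. CAT stood in 42.0% of 362 such windows on the 10 genes and in 50.8% of 74777 windows over all clusters. The same region was counted once per library, so these windows are not independent, and no test was made.

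The starts themselves were also covered. Clusters reached the first 50 bases of 5 of the 8 genes with a start sequence, against 1.42% of 15843 protein-coding genes and 4.69% of the 4545 genes with at least as many cluster reads as the lowest of the 8. These were EEF2, EEF1B2 at its downstream start, TPT1, RACK1 and NACA. EEF1A1, EEF1G and EIF4B had none there. The lowest of the 8 was EEF1B2 with 68 cluster reads, and the others had 1112 to 28984. The 4545 genes are therefore not matched to them in reads, and the part of read number was not tested.

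The share of conversion events among all events in a gene's clusters is a measure other than the gene counts, though whether it was in view when the genes were chosen is not recorded. It was tested over libraries where every library had at least 100 events. Arsenite libraries had a higher share than PBS in all libraries for EEF1A1 (8.76%, 9.73% and 8.94% in PBS, 10.8%, 10.7% and 10.3% with arsenite), EEF2 (8.70%, 8.996% and 8.61% against 9.30%, 9.30% and 9.81%) and PABPC1 (9.61%, 9.53% and 9.78% against 10.7%, 10.3% and 10.5%). These are 3 of the 6 genes tested, beside 24.8% of 561 genes that did not overlap in either direction. EEF1A1 differed by 1.46 percentage points, EEF2 by 0.70 and PABPC1 by 0.84, while EEF1G, TPT1 and RACK1 overlapped. The share over all clusters of a library also lay higher with arsenite (8.63% to 8.81%) than with PBS (7.95% to 8.13%), and the median of the 561 genes differed by 0.36 points.

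At TM 4 h the mean share was above DMSO in 7 of 8 genes, but without overlap between libraries in NACA only, 9.95%, 10.8% and 10.3% with DMSO against 12.4%, 12.1% and 11.02%, 1 of 8 genes beside 7.40% of 1905, whose median difference was 0.33 points. At TM 1 h EEF2 was lower (8.08% ± 0.43 against 9.03% ± 0.71, n = 3 each) and TPT1 higher (8.73% ± 0.97 against 7.83% ± 0.23), 2 of 3 genes beside 8.68% of 1186. EEF2 was higher at TM 4 h than at TM 1 h (9.80% ± 0.57 against 8.08% ± 0.43), 1 of 3 genes beside 10.1% of 1203. In a two-sided exact permutation test 3 against 3 libraries cannot go below p = 0.1, which all of these reached, and the adjusted p over the 20 tests was 0.286. None passed a threshold of 0.05.

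**Figure D3:**
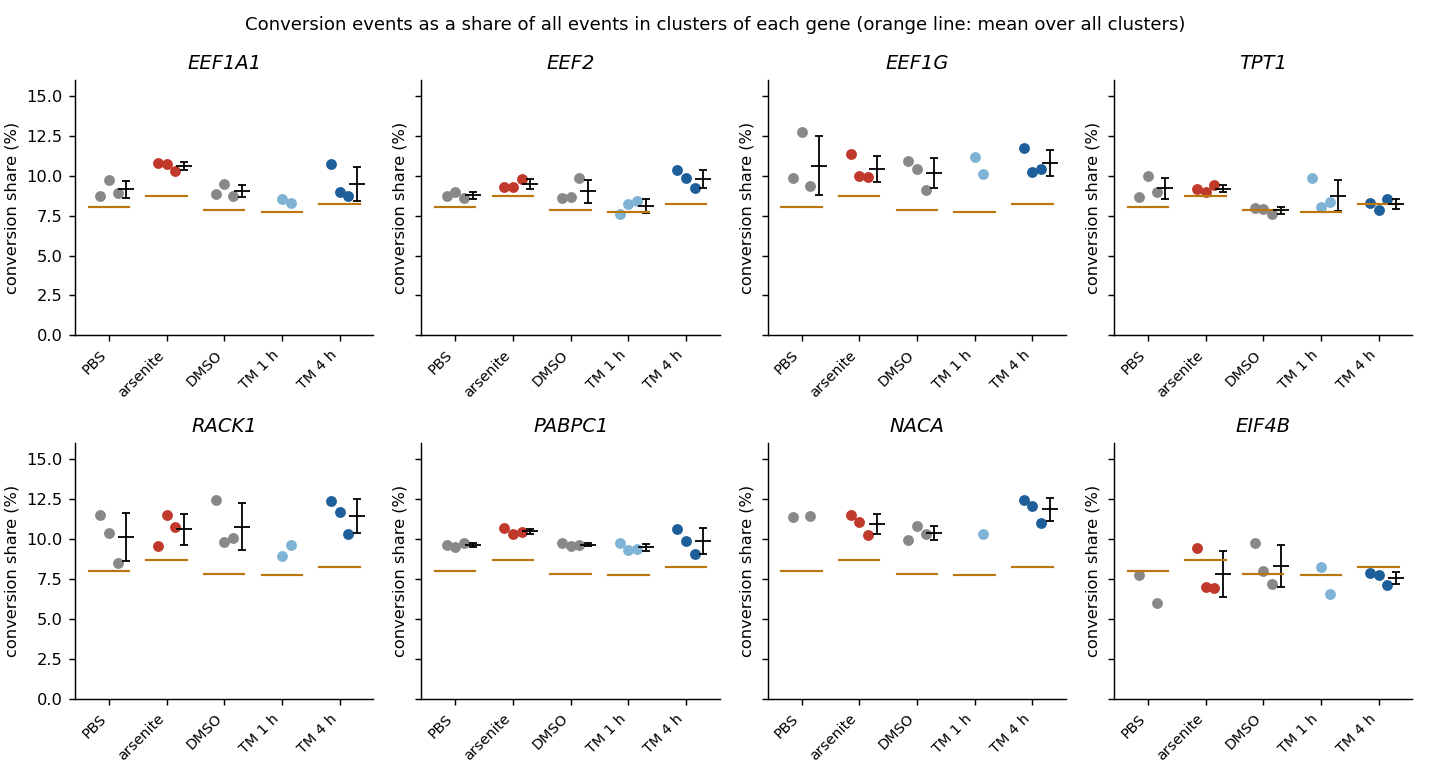
Conversion events as a percentage of all events in the clusters of 8 genes (vertical axis), for each anti-IGF2BP3 library with at least 100 events, with mean and SD where all 3 libraries had them, and an orange line for the mean over all clusters of the condition. Arsenite points lie above PBS points in EEF1A1, EEF2 and PABPC1, where the line moves up too.

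The share of a gene's cluster reads in its leading region was compared in the same way, a measure added after the data had been seen, where every library had at least 10 reads. With arsenite the RACK1 region at the start of the gene held 30.1%, 26.8% and 22.3% of the gene's reads, against 43.6%, 38.5% and 38.0% in PBS. EEF2 (82.6%, 83.0% and 78.3% against 89.2%, 94.7% and 86.7%) and PABPC1 (33.2%, 32.4% and 31.7% against 38.0%, 33.5% and 37.2%) were lower too. Arsenite thus lay below PBS in all libraries for 3 of 7 genes, beside 35.4% of 715 genes that did not overlap in either direction, and the median difference over these genes was -8.21 points. Arsenite libraries were deeper, with 414033 to 1098488 counts against 130478 to 423906, and the part of depth in this was not tested.

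At TM 4 h the leading region of EEF1A1 (26.9% ± 2.2 against 33.7% ± 4.5 with DMSO) and of TPT1 (56.1% ± 3.9 against 64.4% ± 1.9) held less, 2 of 8 genes beside 7.09% of 2187 genes. EEF2 (82.8% ± 2.3 against 92.0% ± 3.5) and PABPC1 (34.6% ± 1.0 against 38.9% ± 1.8) held less at TM 4 h than at TM 1 h, 2 of 5 genes beside 10.3% of 1447 genes. At TM 1 h none of the 5 genes tested differed from DMSO without overlap, beside 6.65% of 1414. The smallest adjusted p of these 25 two-sided exact permutation tests was 0.357, with p = 0.1 as the smallest that 3 against 3 libraries allow.

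**Figure D4:**
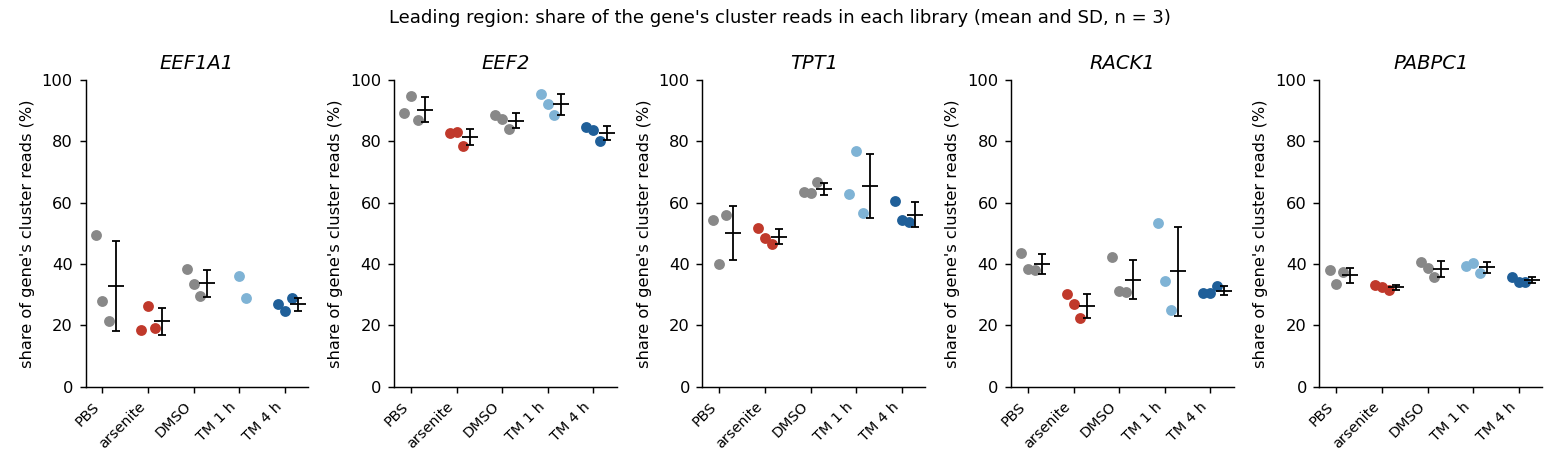
Share of a gene's cluster reads in its leading region (vertical axis, percent, 0 to 100) in each anti-IGF2BP3 library with at least 10 reads on the gene, with mean and SD. The 3 arsenite points lie below the 3 PBS points for EEF2, RACK1 and PABPC1.

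Other genes of the pathway were read through cluster reads per gene, because the count table could be matched to symbols only for the 10 genes. This measure has less power, and its all-gene median moved to 0.31 for arsenite and 0.34 for the difference between stresses, so values are set beside that median. The ribosomal protein mRNAs, the classic TOP mRNAs, lay below DMSO at TM 1 h (median -0.54 beside -0.19 for all genes, 7 of 65 above 0) and above it at TM 4 h (median 0.56 beside 0.01, 62 of 65 above 0). Between TM 4 h and TM 1 h their median was 1.28 beside 0.22. RPL10 was called higher (1.44 ± 0.27, adjusted p = 0.027), 1 of 65 tested, beside 0.264% of 4922 genes called in either direction. With arsenite their median was -0.52 beside 0.31, and 3 of 49 were called lower beside 2.74% of 2842 genes, RPL23A (-1.50 ± 0.26, adjusted p = 0.013), RPL39 (-1.84 ± 0.36, adjusted p = 0.019) and RPLP0 (-1.46 ± 0.37, adjusted p = 0.038). In the difference between stresses 4 of 63 were called lower beside 0.518% of 4251 genes, RPL39 (-2.23), RPLP0 (-1.74), RPL10 (-1.56) and RPL23A (-1.53). Clusters on ribosomal protein genes covered a mean of 8959.7 bases per library in PBS, 13078 with arsenite and 20119 with DMSO. For tunicamycin they covered 11697 after 1 h and 25532 after 4 h. The RPM per covered base was 2.24, 0.704, 0.597, 1.02 and 0.610 in that order. Over all clusters in RefSeq genes it was 2.43, 0.717, 0.606, 1.13 and 0.538. The PBS means lean on the shallowest PBS library here too.

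Of the other translation factors and TOP-like mRNAs, EIF3L, a subunit of initiation factor 3, was called higher at TM 4 h than at TM 1 h (1.25 ± 0.22, adjusted p = 0.020). This was 1 of 36 tested, beside 0.264% of 4922 genes called in either direction. EIF4E, the cap-binding initiation factor, was called lower with arsenite (-1.31 ± 0.21, adjusted p = 0.010), 1 of 33 beside the same 2.74%. Its RPM values, scaled here to all reads in gene clusters, were 1590 ± 537 in PBS and 525 ± 86 with arsenite (SD, n = 3 each). EIF4E clusters covered 511 and 561 bases, with 3.28 and 0.898 RPM per covered base, beside 2.43 and 0.717 over all gene clusters. The PBS value over all gene clusters leans on the shallowest PBS library. The median of this list was 0.02 beside 0.31 for all genes with arsenite and -0.15 beside 0.34 in the difference between stresses. It was -0.15 beside -0.19 at TM 1 h, 0.20 beside 0.01 at TM 4 h and 0.25 beside 0.22 between both times.

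Among the regulators of TOP mRNA translation, LARP1B, a LARP1 paralogue, was called higher with arsenite (1.34 ± 0.26, adjusted p = 0.019) and in the difference between stresses (2.09 ± 0.40, adjusted p = 0.0061). TIAL1, a stress granule protein, was called higher with arsenite too (adjusted p = 0.033), 194 ± 27 RPM on that scale against 9.27 ± 16.06 in PBS (SD, n = 3 each), where 2 of the libraries had no cluster on it. These are 2 of 10 regulators tested with arsenite, beside 8.37% of 2842 genes called higher, and LARP1B is 1 of 13 in the difference, beside 2.56% of 4251. LARP1B clusters covered a mean of 177 bases in PBS and 447 with arsenite, with 1.86 and 1.26 RPM per covered base. TIAL1 clusters covered 17.0 and 386, with 0.481 (from 1 library) and 0.570 RPM per covered base. All clusters in RefSeq genes covered 673721 bases in PBS and 1.69e+06 with arsenite, with 2.43 and 0.717 RPM per covered base. The 2.43 leans on the shallowest PBS library.

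In these cluster fits the 10 genes themselves were seldom called. RACK1 was higher at TM 4 h than at TM 1 h (1.43 ± 0.26) beside 0.264% of 4922 genes called in either direction, and the arsenite change of EEF1A1 was below its TM 4 h change (-1.29 ± 0.35) beside 3.08% of 4251. Over all genes edgeR called 0.203% at TM 4 h, 11.1% with arsenite and 0% at TM 1 h, where 102 of 4922 genes had an unadjusted p under 0.05. No list gene was called by edgeR in either comparison with DMSO. At an unadjusted p under 0.05 there were 3 of 65 ribosomal protein genes, 3 of 36 other factors and 1 of 14 regulators at TM 1 h. At TM 4 h there were 2, 3 and 1 of the same numbers tested, beside 96 of 4922 genes.

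Outside the 10 genes and the ribosomal protein genes, 3 genes had the pattern most like the mean profile of 8 of the 10 genes. The profile was taken over the 15 anti-IGF2BP3 libraries, in log2 RPM. The 3 genes were CCNG1 (Pearson's r = 0.90), EIF3E (0.89, itself on the list of other translation factors) and WBP2 (0.87) among 1886 genes whose median r was -0.10. These libraries share their depth and treatment groups, and the 3 genes were found as the highest of all, so the values describe them and carry no test.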

How the data were processed

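The authors deposited whole-number counts per gene for 20 PAR-CLIP libraries and a cluster list per library with reads, conversion events and other events per cluster, per the file headers. Each list also holds a mode location and its score, a fraction between 0 and 1, per the file headers. The score was not used. The submitters' processing notes name bcl2fastq 2.20.0.422, UMI-tools 1.1.1, Trimmomatic 0.30, Bowtie 0.12.7, featureCounts 2.0.1 and the builds GRCh38.p13 and hg38, without roles or order. The cluster caller is not given in the sources used here. Clusters carry GRCh38 coordinates: 518 of 518 distinct clusters inside RefSeq GRCh38.p14 promoter windows had the same letters.

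The genes and gene lists were chosen with earlier results of these data known. All 10 genes are named, and of each other list up to 4 genes per comparison with the lowest adjusted p. Gene counts were fitted over all genes with edgeR 4.0.16 in R 4.3.3 (filterByExpr, TMM, quasi-likelihood test, threshold 0.05). The comparison with IgG used library totals and condition as a covariate, without the library set. The SE is the log2 fold change divided by the root of its F statistic. DESeq2 1.42.0, no filter, blocks, other scalings and each library left out were alternatives. The fits were also run on simulated counts with a fixed spread, no set or replicate effects, and changes in well-counted genes only. That run does not cover genes with low counts, and no result is drawn from it. Clusters were assigned to RefSeq genes by their mode location. This count of cluster reads per gene replaced gene counts for the lists, since no table at hand pairs the count table's identifiers with symbols, and it was added after the data were seen. Conversion shares were compared by exact permutation tests over libraries with Benjamini-Hochberg adjustment. No exon or UTR annotation was used here.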

Additional observations from a re-analysis of the deposited data

Results flagged for a closer look

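The change of 7 genes after tunicamycin differed between 1 h and 4 h, by edgeR's test of the difference between the 2 times, beside 5.60% of all genes called higher. The genes were chosen with these counts in view, so neither this nor the next pattern is independent evidence. TM 4 h lay above TM 1 h on the log2 scale by 1.16 for RACK1, 1.04 for NACA, 0.79 for EEF1A1, 0.56 for EEF2, 0.41 for TPT1, 0.41 for EIF4B and 0.26 for PABPC1. TM 4 h exceeded TM 1 h in all libraries for each of these 7 genes. The EIF4B and PABPC1 calls were lost in several alternatives given with their values.

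The change with arsenite against PBS differed from the change at TM 4 h against DMSO for 6 genes, by the test of the difference of both changes, beside 9.74% of all genes called lower. The log2 difference was -1.16 for EEF1A1, -0.96 for RACK1, -0.63 for EIF4B, -0.55 for EEF2, -0.46 for TPT1 and -0.31 for PABPC1. NACA (-0.14) did not pass this test, and the TPT1, PABPC1 and EIF4B calls were lost in alternatives given with their values. The 2 stresses were applied for different times, and the library names place them in different sets. Stress, time and set therefore cannot be told apart.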

How the results depend on the processing

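Counts of the genes called, of the 10, were compared over the alternatives. The main counts were 1 for TM 1 h, 4 for TM 4 h, 7 for TM 4 h against TM 1 h, 5 for arsenite, 6 for the difference between stresses, 1 for IgG and 3 for the conversion share with arsenite. At TM 1 h the count was 0 in DESeq2, without the filter on low counts, with the replicate block, with the library set as a block and with library set S142 (replicates 1 and 2) alone, and 0 to 1 without each library in turn. For arsenite it was 3 in DESeq2 and 3 without the filter, and 3 to 5 without each library in turn, with 3 when arsenite replicate 3 was left out. The difference between stresses gave 3 without the filter. Against IgG the count was 2 with TMM, 2 in DESeq2, 0 without the filter and 0 to 1 without each IgG library in turn. With cluster reads in place of gene counts, added after the data were seen, it was 0 at TM 1 h, 0 at TM 4 h, 1 for TM 4 h against TM 1 h, 0 for arsenite and 1 for the difference. The cause of these shifts was not tested. Same-numbered libraries of different groups did not deviate together (correlations from -0.05 to 0.02), so numbers were not used as pairs. The replicate block changed no other call of a comparison's count, which stayed at 4, 7, 5 and 6. Without each library in turn the counts were 3 to 5 for TM 4 h, 5 to 7 for TM 4 h against TM 1 h, 5 to 6 for the difference and 3 to 4 for the conversion share, which was 2 over clusters with at least 10 reads. There the NACA conversion share differed by 2.56 points at TM 4 h, against 1.49 over all clusters. By name instead of attachment, the arsenite IgG list would hold 12 PABPC1 reads. Over all genes the calls numbered 46 at TM 1 h (6 in DESeq2, 16 in set S142 alone, 13 to 51 without a library), 426 at TM 4 h (151, 129 and 178 to 447 in the same order), 967 for TM 4 h against TM 1 h (502, 488 and 523 to 1022), 2310 for arsenite (1233 in DESeq2), 1427 for the difference (854 in DESeq2) and 92 against IgG (582 with TMM, 178 in DESeq2, 156 without the filter). With cluster reads they were 0, 10, 13, 316 and 131 in the first 5. No call changed direction. The IgG depth and the low counts of EEF1B2 and EEF1D limit what could be detected.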
